A study of Mus musculus with 9 samples.

Results

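The genes described here are 44 genes of the cell division cycle: 30 that act in mitosis, 13 that act at the entry into S phase or in DNA replication, and cyclin D1 (Ccnd1), a G1 cyclin. They were taken by gene name from 1-colour arrays of mouse abdominal aorta, out of 23835 genes with a symbol on the array. All 44 had at least 1 probe, and 61 probes carried their names. The brightest probe stood for each gene. 40 of the 44 passed the filter on dim probes, which kept a probe if every array of 1 group or more read it well above background, and were tested among 16496 genes. A gene that passed only through the group in which it was bright had to differ between groups.

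All mice were uMT, a B cell-deficient genotype, on the C57BL/6 strain, so the controls carried the same deletion as the treated mice. Sham mice (uMT_sham, 3 arrays) had physiological saline placed around the aorta. CaCl2 mice (uMT_Ca, 3 arrays) had 0.5 M CaCl2 placed there, a treatment used to induce abdominal aortic aneurysm, and the aorta was taken 7 days later. CaCl2 plus IgG mice (uMT_Ca+IgG, 3 arrays) had the same treatment and also received mouse polyclonal IgG into the peritoneum. Age, sex and the day on which sham aortas were taken are not stated. Nor is it stated whether each array came from a separate mouse, so a p-value measures only the spread between these arrays. In whole tissue, fewer cells of a type and less RNA per cell cannot be told apart.

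Cells that divide replicate their DNA in S phase, when the MCM helicase unwinds origins and the PCNA clamp holds the polymerases on the template, and they separate the copies in mitosis under cyclin B and CDK1. Genes for replication are switched on at the G1/S boundary by E2F factors. Genes for mitosis are switched on later, through the cell cycle genes homology region (CHR), which the MuvB complex binds, and through CCAAT boxes, which NF-Y binds. Medial smooth muscle cells of a healthy adult artery seldom divide, whereas infiltrating leukocytes and activated smooth muscle cells or fibroblasts can.

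The promoters of the 2 classes held these elements in different shares, which played no part in choosing the genes. RefSeq promoter windows, from 250 bases before to 50 bases after each start (GRCm38.p6), were found for 35 of the 44 genes, with 25 windows for 24 mitotic genes and 12 windows for 11 S phase genes. Aurkb, Ccna2, Cdc25c, Foxm1, Kif20a, Tpx2, Mcm4, Ccne2 and Ccnd1 had none. The CHR was searched as TTTGAA, the CCAAT box as CCAAT, and the E2F site as TTTCCCGC, TTTCGCGC, TTTGCCGC or TTTGGCGC, all on both strands. No motif contains another, but matches may share bases. The windows of 4 mitotic genes, Ccnb2, Cdk1, Ube2c and Cdca8, and of 3 S phase genes, Mcm5, Mcm6 and Mcm7, are shown because they hold the elements whose shares differ. Each run covers 170 bases before to 30 bases after the start on the gene's own strand, with every match in capitals.
Ccnb2, chr9:70421525-70421724, strand -: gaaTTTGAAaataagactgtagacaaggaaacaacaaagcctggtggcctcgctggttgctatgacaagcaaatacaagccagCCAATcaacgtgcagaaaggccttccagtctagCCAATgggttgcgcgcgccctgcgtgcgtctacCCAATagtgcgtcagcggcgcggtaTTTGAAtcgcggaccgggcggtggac
Cdk1, chr10:69352883-69353082, strand -: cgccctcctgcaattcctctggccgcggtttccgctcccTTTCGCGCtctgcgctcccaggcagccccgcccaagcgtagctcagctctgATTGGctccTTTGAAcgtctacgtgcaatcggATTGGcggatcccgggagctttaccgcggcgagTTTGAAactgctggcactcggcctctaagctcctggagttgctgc
Ube2c, chr2:164769759-164769958, strand +: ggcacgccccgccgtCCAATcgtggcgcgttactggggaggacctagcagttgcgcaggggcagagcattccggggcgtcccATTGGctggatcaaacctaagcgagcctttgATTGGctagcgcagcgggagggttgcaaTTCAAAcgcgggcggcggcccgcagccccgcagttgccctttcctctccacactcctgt
Cdca8, chr4:124936888-124937087, strand -: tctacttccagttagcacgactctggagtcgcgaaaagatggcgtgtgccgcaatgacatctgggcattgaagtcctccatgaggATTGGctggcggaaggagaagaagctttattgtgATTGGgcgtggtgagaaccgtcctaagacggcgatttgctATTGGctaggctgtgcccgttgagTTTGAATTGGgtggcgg
Mcm5, chr8:75109339-75109538, strand +: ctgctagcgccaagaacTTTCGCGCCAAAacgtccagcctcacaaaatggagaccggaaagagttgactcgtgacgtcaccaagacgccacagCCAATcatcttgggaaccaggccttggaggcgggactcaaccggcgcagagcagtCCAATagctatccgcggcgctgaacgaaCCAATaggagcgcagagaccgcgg
Mcm6, chr1:128359676-128359875, strand -: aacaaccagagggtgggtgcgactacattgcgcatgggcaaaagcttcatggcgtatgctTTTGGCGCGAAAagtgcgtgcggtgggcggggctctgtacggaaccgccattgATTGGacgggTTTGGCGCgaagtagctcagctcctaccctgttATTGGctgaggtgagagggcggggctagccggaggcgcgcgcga
Mcm7, chr5:138171854-138172053, strand -: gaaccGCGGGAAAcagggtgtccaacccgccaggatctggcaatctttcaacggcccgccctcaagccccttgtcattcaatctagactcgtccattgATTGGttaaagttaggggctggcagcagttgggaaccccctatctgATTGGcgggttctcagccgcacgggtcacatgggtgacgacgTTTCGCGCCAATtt

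A CHR lay close to the start in each of the 4 mitotic windows: first base at 5 for Ccnb2, at -15 for Cdk1, at -29 for Ube2c and at 14 for Cdca8, counted from 1 at the start with no 0. The CCAAT boxes of Ccnb2 stood at -87, -54 and -21. In Mcm6 an E2F match at -110 overlapped one on the other strand at -106, and a further match lay at -47. Mcm5 held the overlapping pair at -153 and -149, and the Mcm7 window shown held matches at -165 and 17. A second Mcm7 window, not shown, held 0 E2F matches and 1 CCAAT box.

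The CHR letters were found in 19 of 25 mitotic windows (76%), in 1 of 12 S phase windows (8.33%, that of Mcm2) and in 17.9% of all 32851 windows. A CHR together with a CCAAT box was present in 18 of 25 mitotic windows (72%), in 1 of 12 S phase windows (8.33%) and in 6.95% of all windows. The E2F letters showed the reverse order, with 4 of 12 S phase windows (33.3%, Mcm3, Mcm5, Mcm6 and Mcm7), 1 of 25 mitotic windows (4%, Cdk1) and 2.26% of all windows. CCAAT boxes were frequent in both classes, at 84% and 66.7%, against 37.4% of all windows. Among genes that were higher in CaCl2 than in sham aorta, 14.6% of 2739 windows held a CHR, against 12.7% for all genes tested. The 6 mitotic genes with a window but no CHR were Birc5, Bub1, Ccnb1, Cenpe, Melk and Nusap1. These shares are counts of letters, not of bound sites, and no test was made of them.

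**Figure D1:**
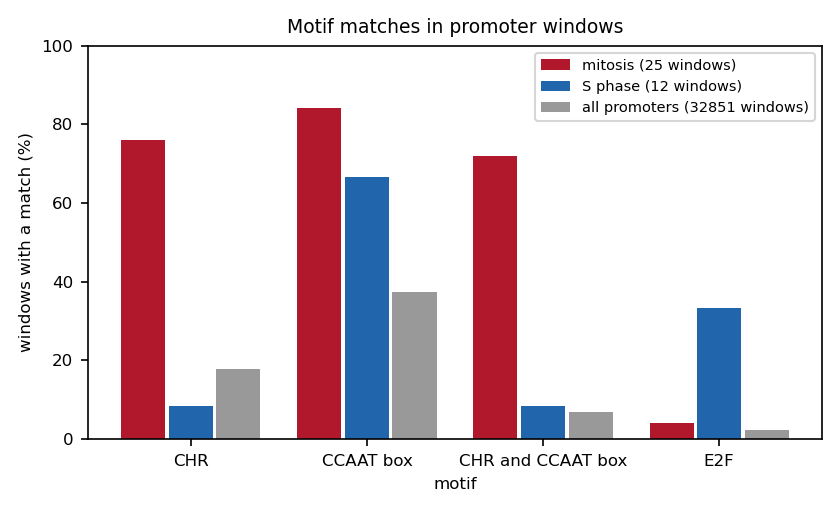
Share of promoter windows (vertical axis, percent) with a match to each motif (horizontal axis), for 25 windows of mitotic genes, 12 windows of S phase genes and all 32851 windows. The CHR bar reaches 76% in mitotic genes and 8.33% in S phase genes, and the E2F bar 4% and 33.3%.

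Levels are log2 of the processed signal minus the log2 of that array's 75th percentile, so a value of 0 is the level of the 75th percentile of probes. Levels of different probes are not compared, except in the summed levels of marker lists. Those sums add different probes and follow mainly the brightest of them. The share of probes well above background was 54.9% to 59.9% per array, and no spot was saturated. The 75th percentile itself was 266.7 to 301.7 in sham, 380.6 to 495.9 in CaCl2 and 269.5 to 454.9 in CaCl2 plus IgG arrays. After scaling, the lowest signal that counted as above background averaged -4.29 in sham and no more than -5.07 in CaCl2 arrays. The same scaled level could thus count as above background in CaCl2 and not in sham. The median gene moved by -0.08 between CaCl2 and sham on this scale, and by 0.39 when arrays were scaled to their median instead, so that changes are relative to the scale chosen. The third sham array was on a slide of its own, and the other 8 shared a slide, with all CaCl2 arrays in 1 row and the remaining sham arrays in the other. The third CaCl2 plus IgG array stood apart from the rest over all genes, being the lowest of its group for 47.9% of genes tested, and results are also given without it. Smooth muscle markers, which check the tissue, were all measured, and their summed level, in units of the 75th percentile, was 3489 to 4013 in sham, 1110.3 to 1732 in CaCl2 and 1241 to 1576 in CaCl2 plus IgG arrays.

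Cell cycle genes were higher in the CaCl2 aorta than in the sham aorta. Of the 40 tested, 27 rose, 0 fell and 13 did not pass the test (limma, Benjamini-Hochberg adjusted p under 0.05), where 36.4% of all genes tested passed and 17.4% rose. The median change of the 40 was 1.23 on the log2 scale, against -0.08 for all genes. For 31 of the 40, all 3 CaCl2 arrays lay above all 3 sham arrays, which held for 24.6% of all genes. 1 gene, Tyms, lay below in all 3. Of the mitotic genes, 20 of 27 rose, with a median change of 1.77, whereas 6 of 12 S phase genes rose, with a median of 0.78. The measured change was at least 2-fold in all 20 mitotic genes that rose, in 3 of the S phase genes that rose and in Ccnd1. These counts include genes that passed the filter on dim probes only through treated arrays. On probes well above background on all 9 arrays, 67.7% of 31 cell cycle genes passed, against 35.7% of all genes.

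**Figure D2:**
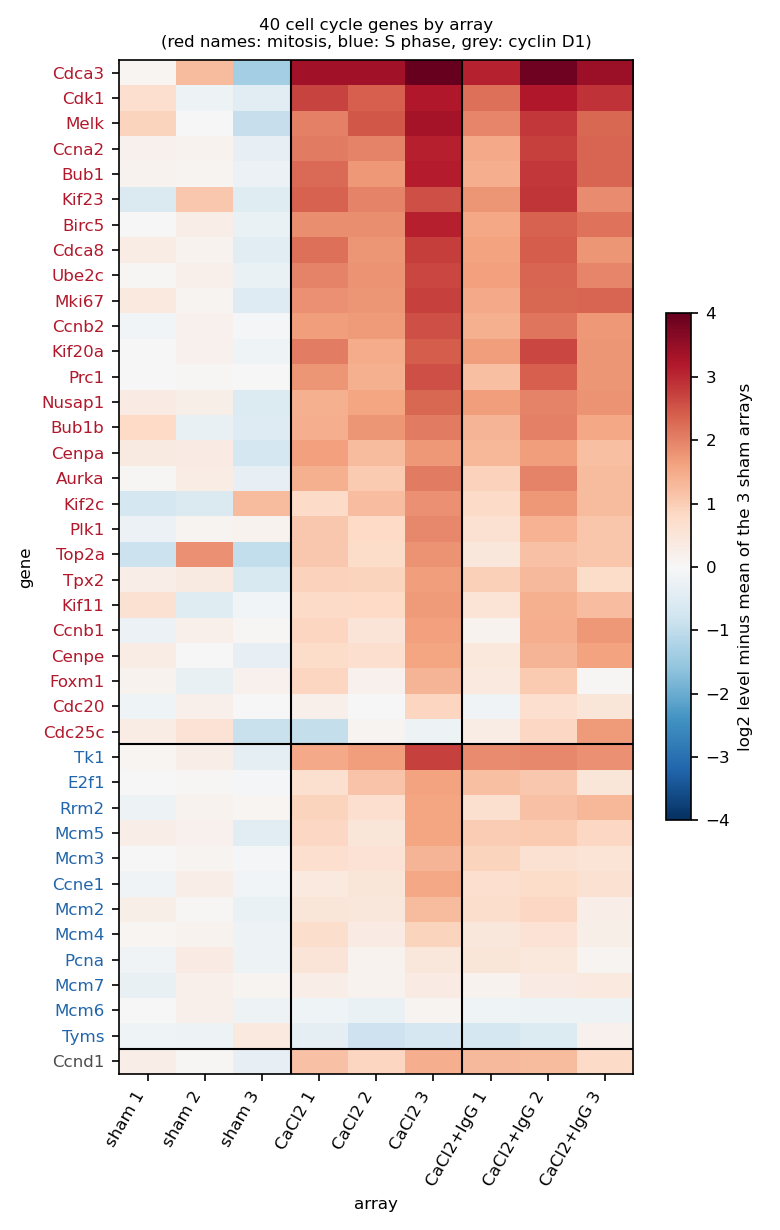
Log2 level of each of the 40 tested genes (rows) in each of the 9 arrays (columns), shown as the difference from that gene's mean over the 3 sham arrays, with red for higher and blue for lower. Mitotic genes fill the upper block, S phase genes the middle block, and Ccnd1 the last row, and the 6 CaCl2 and CaCl2 plus IgG columns are red for most mitotic genes.

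Among the cyclins and regulators that switch on CDK1, Cdk1 itself, the kinase that drives entry into mitosis, had levels of -4.62, -5.50 and -5.76 in sham, -2.59, -2.91 and -2.10 in CaCl2, and -3.10, -2.09 and -2.42 in CaCl2 plus IgG arrays. No sham array was well above background, and every treated array was. Cdk1 therefore passed the filter on dim probes only through treated arrays, so a difference between groups was built into its selection. The same holds for Melk and Bub1 below. Its measured change was 2.76 ± 0.37 (SE, n = 3 per group; limma adjusted p = 0.00137), and since the sham level is only a bound it was at least 3.38-fold higher in CaCl2. Here and below such a bound sets the bright group's mean against the lowest signal that counted as above background in the dim group. It applies to the processed signal only and takes no account of the spread between arrays. Under another background correction, described below, the log2 change of Cdk1 was 0.48, less than this bound. Ccna2, the A-type cyclin of S phase and G2, read -2.48, -2.52 and -3.0 in sham, -0.61, -0.68 and 0.44 in CaCl2, and -1.16, 0.05 and -0.35 in CaCl2 plus IgG, and rose by 2.38 ± 0.38 (adjusted p = 0.00278). Ccnb2, a B-type cyclin that partners CDK1, read -2.06, -1.76 and -1.99 in sham, -0.26, -0.22 and 0.64 in CaCl2, and -0.51, 0.19 and -0.21 in CaCl2 plus IgG, a rise of 1.99 ± 0.27 (adjusted p = 0.00154). For these 3 genes no sham array reached the treated arrays.

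Ccnb1, the other B-type cyclin, had no overlap between sham and CaCl2, with -2.67, -2.23 and -2.37 in sham, -1.57, -1.92 and -0.80 in CaCl2, and -2.28, -0.98 and -0.68 in CaCl2 plus IgG, but its change of 1.00 ± 0.43 did not pass (adjusted p = 0.102). Cdc25c, the phosphatase that activates CDK1, read -4.93, -4.63 and -6.09 in sham and was not well above background on any sham or CaCl2 array. Its measured change was the lowest of the mitotic class, at -0.35 ± 0.48 (adjusted p = 0.592), and with both groups below background it gives no measure of the transcript.

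All 5 of the mitotic kinases and checkpoint kinases that could be tested rose. Melk, a kinase of proliferating cells, read -4.25, -5.11 and -6.06 in sham, -3.14, -2.67 and -1.80 in CaCl2, and -3.19, -2.33 and -2.85 in CaCl2 plus IgG. It had no sham array well above background and was at least 3.31-fold higher in CaCl2 (measured change 2.61 ± 0.49, adjusted p = 0.00547). Bub1, a spindle checkpoint kinase, read -5.94, -5.98 and -6.32 in sham, -3.80, -4.35 and -2.95 in CaCl2, and -4.64, -3.26 and -3.74 in CaCl2 plus IgG arrays. It too was well above background only in treated arrays, and was at least 1.51-fold higher in CaCl2 (measured change 2.38 ± 0.42). Bub1b, which holds back the anaphase-promoting complex, rose by 1.76 ± 0.35 with levels of -3.62, -4.70 and -4.92 in sham, -2.96, -2.65 and -2.33 in CaCl2, and -3.05, -2.38 and -2.86 in CaCl2 plus IgG arrays. Only 1 sham array had Bub1b well above background, which limits the size of its change. Aurka, the centrosomal Aurora kinase, rose by 1.52 ± 0.34 with levels of -2.42, -2.15 and -2.80 in sham, -1.03, -1.40 and -0.38 in CaCl2, and -1.53, -0.49 and -1.18 in CaCl2 plus IgG arrays. In both, every treated array lay above every sham array. Plk1, the polo kinase, rose by 1.27 ± 0.31 with levels of -1.80, -1.46 and -1.44 in sham, -0.48, -0.76 and 0.35 in CaCl2, and -0.95, -0.18 and -0.47 in CaCl2 plus IgG arrays, again with no overlap. Aurkb and Ttk were not tested: Aurkb was not well above background on any array, and Ttk on 1 array only, from the CaCl2 plus IgG group.

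The largest measured change belonged to Cdca3, which helps cells enter mitosis by directing the breakdown of the inhibitory kinase WEE1. Its levels were -4.72, -3.53 and -6.15 in sham, -1.45, -1.43 and -0.51 in CaCl2, and -1.71, -0.90 and -1.37 in CaCl2 plus IgG arrays, with 1 sham array well above background. It rose by 3.67 ± 0.60 (adjusted p = 0.00293). The sham values spread widely, and all of them lay below every CaCl2 value. Ube2c, the ubiquitin-conjugating enzyme of the anaphase-promoting complex, read -2.46, -2.30 and -2.77 in sham, -0.54, -0.70 and 0.15 in CaCl2, and -0.88, -0.20 and -0.56 in CaCl2 plus IgG, with a rise of 2.15 ± 0.26. That was the lowest adjusted p of the 40 genes, 0.000994. Cdc20, which activates the same complex, overlapped between groups, with -0.35, 0.02 and -0.20 in sham, 0.02, -0.19 and 0.69 in CaCl2, and -0.33, 0.49 and 0.29 in CaCl2 plus IgG (change 0.35 ± 0.28, adjusted p = 0.353).

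Of the 6 genes tested for chromosome structure and the centromere, 4 rose. Mki67, which coats mitotic chromosomes and is the standard proliferation marker, read -0.63, -0.90 and -1.53 in sham, 0.81, 0.74 and 1.71 in CaCl2, and 0.49, 1.27 and 1.30 in CaCl2 plus IgG arrays. No array had it near background, and it rose by 2.11 ± 0.35 in CaCl2 (adjusted p = 0.00336). Birc5 (survivin) and Cdca8 (borealin), subunits of the chromosomal passenger complex, rose by 2.27 ± 0.36 and 2.24 ± 0.33. Birc5 read -0.84, -0.54 and -1.08 in sham, 1.03, 1.05 and 2.28 in CaCl2, and 0.73, 1.54 and 1.36 in CaCl2 plus IgG arrays. Cdca8 read -1.64, -1.81 and -2.39 in sham, 0.25, -0.19 and 0.81 in CaCl2, and -0.34, 0.48 and -0.20 in CaCl2 plus IgG arrays. Both sets of treated arrays were clear of sham. Cenpa, the histone H3 variant of centromeres, read -1.69, -1.75 and -2.76 in sham, -0.42, -0.79 and -0.32 in CaCl2, and -0.74, -0.41 and -0.87 in CaCl2 plus IgG arrays, a rise of 1.56 ± 0.29, also with no overlap.

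Top2a, the topoisomerase that untangles sister chromatids, did not pass, and 1 sham array lay above all CaCl2 arrays. It read -3.67, -0.96 and -3.77 in sham, -1.73, -2.08 and -1.01 in CaCl2, and -2.35, -1.64 and -1.68 in CaCl2 plus IgG (change 1.20 ± 0.70, adjusted p = 0.206). Without that sham array the change was 2.12 (adjusted p = 0.00652). Cenpe, a kinetochore motor, read -0.75, -1.03 and -1.38 in sham, -0.33, -0.38 and 0.54 in CaCl2, and -0.64, 0.31 and 0.55 in CaCl2 plus IgG arrays. Its CaCl2 arrays were all above its sham arrays, but the change of 0.99 ± 0.36 missed the threshold (adjusted p = 0.0611). Cenpf was not well above background on any array and was not tested.

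Of the 7 spindle and cytokinesis genes, 6 rose. Kif23, Kif20a and Prc1 build the central spindle on which the cell divides. Kif23 read -5.66, -3.99 and -5.56 in sham, -2.70, -3.07 and -2.49 in CaCl2, and -3.31, -2.22 and -3.17 in CaCl2 plus IgG arrays, a rise of 2.31 ± 0.47. Only 1 of its sham arrays was well above background, which limits the size of that change. Kif20a read -3.61, -3.46 and -3.81 in sham, -1.57, -2.16 and -1.21 in CaCl2, and -1.95, -0.96 and -1.87 in CaCl2 plus IgG arrays, a rise of 1.98 ± 0.32. Prc1 read -1.64, -1.58 and -1.65 in sham, 0.13, -0.19 and 0.94 in CaCl2, and -0.43, 0.77 and 0.13 in CaCl2 plus IgG arrays, a rise of 1.92 ± 0.35. In all 3 genes sham and treated arrays were apart.

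Nusap1 and Tpx2 organise spindle microtubules. Nusap1 read -3.0, -3.07 and -3.87 in sham, -1.88, -1.73 and -1.01 in CaCl2, and -1.64, -1.34 and -1.51 in CaCl2 plus IgG arrays, and rose by 1.77 ± 0.29. Tpx2 read -2.59, -2.49 and -3.45 in sham, -1.91, -1.97 and -1.17 in CaCl2, and -1.88, -1.55 and -2.11 in CaCl2 plus IgG arrays, and rose by 1.16 ± 0.31. Neither had an overlap between sham and CaCl2. Tpx2 missed the threshold without the third sham array (adjusted p = 0.0624) and without the third CaCl2 array (0.071). A dimmer Tpx2 probe that failed the filter went the other way, at -0.81. It was well above background on 2 sham arrays and 1 CaCl2 array. Kif11, the motor that separates the spindle poles, read -3.93, -5.02 and -4.66 in sham, -3.78, -3.73 and -2.84 in CaCl2, and -4.01, -3.12 and -3.31 in CaCl2 plus IgG arrays, with a change of 1.09 ± 0.37. Its CaCl2 arrays were above its sham arrays by a narrow gap, and only 1 of its sham arrays was well above background. It had an adjusted p of 0.0499, lost its call in 12 of 19 alternative settings and changed sign in 1 further setting, at -0.11 (adjusted p = 0.692) with normexp background correction. Kif2c, a microtubule depolymerase, was not well above background on any sham array, read -6.50, -6.38 and -4.54 in sham, -5.05, -4.58 and -3.96 in CaCl2, and -5.03, -4.09 and -4.55 in CaCl2 plus IgG arrays, and missed the threshold (adjusted p = 0.0927). Foxm1, the transcription factor that acts with MuvB at mitotic promoters, read -3.35, -3.78 and -3.30 in sham, -2.61, -3.31 and -2.12 in CaCl2, and -3.10, -2.42 and -3.43 in CaCl2 plus IgG, where 1 CaCl2 array lay within the sham values, and did not pass either (0.80 ± 0.35, adjusted p = 0.103).

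**Figure D3:**
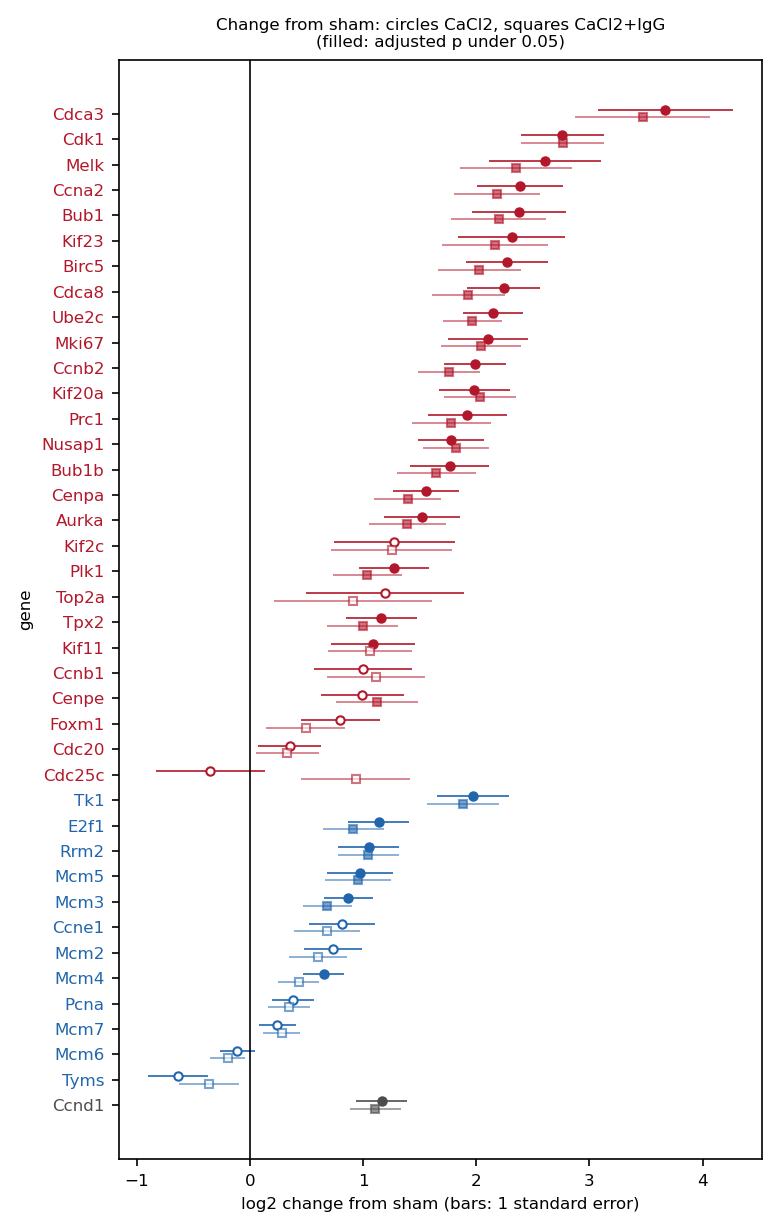
Log2 change from sham for each of the 40 genes (rows), with circles for CaCl2, squares for CaCl2 plus IgG and bars of 1 standard error (3 arrays a group). Filled symbols had an adjusted p under 0.05; they make up 20 of 27 mitotic and 6 of 12 S phase genes in CaCl2, and both comparisons use the same sham arrays.

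Of the S phase genes, 6 of 12 rose. Tk1, the thymidine kinase that salvages thymidine for DNA, had the largest change of the class. It read -2.15, -1.97 and -2.60 in sham, -0.74, -0.58 and 0.50 in CaCl2, and -0.36, -0.31 and -0.40 in CaCl2 plus IgG arrays. It rose by 1.97 ± 0.32 (adjusted p = 0.00281) with no overlap between sham and treated arrays. E2f1, the E2F factor that turns on G1/S genes, read -1.20, -1.16 and -1.25 in sham, -0.56, -0.06 and 0.42 in CaCl2, and -0.01, -0.13 and -0.73 in CaCl2 plus IgG (1.14 ± 0.27, adjusted p = 0.0133). Rrm2, the small subunit of ribonucleotide reductase, read -0.39, -0.04 and -0.11 in sham, 0.70, 0.50 and 1.41 in CaCl2, and 0.47, 0.99 and 1.14 in CaCl2 plus IgG (1.05 ± 0.27, adjusted p = 0.0179). In both genes all CaCl2 values were above all sham values. E2f1 missed the threshold with the slide row as a block (adjusted p = 0.0751), and Rrm2 without the first sham array (0.0581).

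The 6 MCM subunits form 1 ring-shaped helicase; the transcripts of 3 passed the test and those of 3 did not. Mcm5 (0.97 ± 0.29), Mcm3 (0.87 ± 0.21) and Mcm4 (0.65 ± 0.18) rose, with adjusted p of 0.0314, 0.0159 and 0.0252. Mcm5 read -0.48, -0.56 and -1.15 in sham, 0.11, -0.23 and 0.86 in CaCl2, and 0.28, 0.31 and 0.09 in CaCl2 plus IgG arrays. Mcm3 read 0.80, 0.91 and 0.73 in sham, 1.47, 1.39 and 2.18 in CaCl2, and 1.69, 1.42 and 1.37 in CaCl2 plus IgG arrays. Mcm4 read 2.13, 2.20 and 1.85 in sham, 2.78, 2.40 and 2.95 in CaCl2, and 2.53, 2.64 and 2.30 in CaCl2 plus IgG arrays. In these 3 no CaCl2 array fell among the sham arrays. Without the third sham array, which is also the comparison within the shared slide, none of the 3 passed (adjusted p = 0.1, 0.0528 and 0.083). Mcm4 and Mcm5 also missed the threshold without the first CaCl2 array (0.0757 and 0.0628) and without the third (0.0818 and 0.0763), Mcm4 without the first sham array (0.0518), and Mcm5 without the second (0.057). Mcm2 read -1.27, -1.47 and -1.79 in sham, -1.01, -1.05 and -0.25 in CaCl2, and -0.80, -0.69 and -1.23 in CaCl2 plus IgG arrays, and missed the threshold (0.74 ± 0.26, adjusted p = 0.0536) although its CaCl2 arrays were above its sham arrays. Mcm7 read 1.52, 2.02 and 1.94 in sham, 2.10, 1.95 and 2.15 in CaCl2, and 1.95, 2.15 and 2.23 in CaCl2 plus IgG, with a change of 0.24 ± 0.16 (adjusted p = 0.274). Mcm6 read 4.01, 4.23 and 3.83 in sham, 3.84, 3.75 and 4.15 in CaCl2, and 3.87, 3.81 and 3.81 in CaCl2 plus IgG, with a change of -0.11 ± 0.15 (adjusted p = 0.591). For Mcm6 and Mcm7 the sham and CaCl2 values overlapped.

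Pcna, the sliding clamp, read 3.09, 3.54 and 3.03 in sham, 3.74, 3.38 and 3.69 in CaCl2, and 3.71, 3.64 and 3.35 in CaCl2 plus IgG arrays, with overlapping groups and a change of 0.38 ± 0.19 (adjusted p = 0.141). Ccne1, the G1/S cyclin E1, read -1.81, -1.42 and -1.79 in sham, -1.27, -1.18 and -0.12 in CaCl2, and -1.0, -0.92 and -1.06 in CaCl2 plus IgG arrays, with a change of 0.82 ± 0.29 (adjusted p = 0.0562) and no overlap. A dimmer Ccne1 probe that failed the filter, well above background on 2 arrays of each group, went the other way, at -0.70. Tyms, the enzyme that makes thymidylate, read -2.70, -2.71 and -2.14 in sham, -2.91, -3.34 and -3.19 in CaCl2, and -3.22, -3.07 and -2.34 in CaCl2 plus IgG. Its CaCl2 values were all below its sham values, but the change of -0.63 ± 0.26 did not pass (adjusted p = 0.0924); it did without the third CaCl2 plus IgG array, which enters the common estimate of the spread (adjusted p = 0.0319). Ccne2 was not well above background on any array and was not tested. Ccnd1, the D-type cyclin that links growth signals to the cycle, read 1.95, 1.76 and 1.39 in sham, 2.86, 2.57 and 3.16 in CaCl2, and 2.99, 2.95 and 2.48 in CaCl2 plus IgG arrays. It rose by 1.17 ± 0.22 (adjusted p = 0.00588), with no overlap between sham and treated arrays.

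The difference between the classes was of a size that depended on how low signals were treated. On the processed signal, the median mitotic change exceeded the median S phase change by 1.00 on the log2 scale. Averaged over each class and expressed relative to the sham mean, the mitotic genes stood at 0.11, 0.22 and -0.33 in sham, 1.49, 1.38 and 2.25 in CaCl2, and 1.19, 2.03 and 1.68 in CaCl2 plus IgG arrays. The S phase genes stood at -0.03, 0.14 and -0.11, at 0.53, 0.42 and 1.07, and at 0.60, 0.66 and 0.55 in the same arrays. On every CaCl2 and CaCl2 plus IgG array the mitotic mean was the higher, by 0.59 to 1.37. With normexp background correction and an offset of 50, which adds the same amount to every signal and so draws low signals together, the medians were 0.66 and 0.59, a difference of 0.067. Without the offset, a setting tried after seeing the data, they were 1.31 and 0.71, a difference of 0.60. With the offset the calls of Cdk1 (0.48, adjusted p = 0.0764), Melk (0.40, 0.181), Bub1 (0.04, 0.89), Bub1b (0.30, 0.206), Kif23 (0.29, 0.211) and Tpx2 (0.35, 0.143) were lost as well as that of Kif11, and 20 of 40 genes rose. Restricted to probes that all 9 arrays read well above background, the difference was 0.89 on the processed signal. The class comparison is a description, and no test was made of it.

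**Figure D4:**
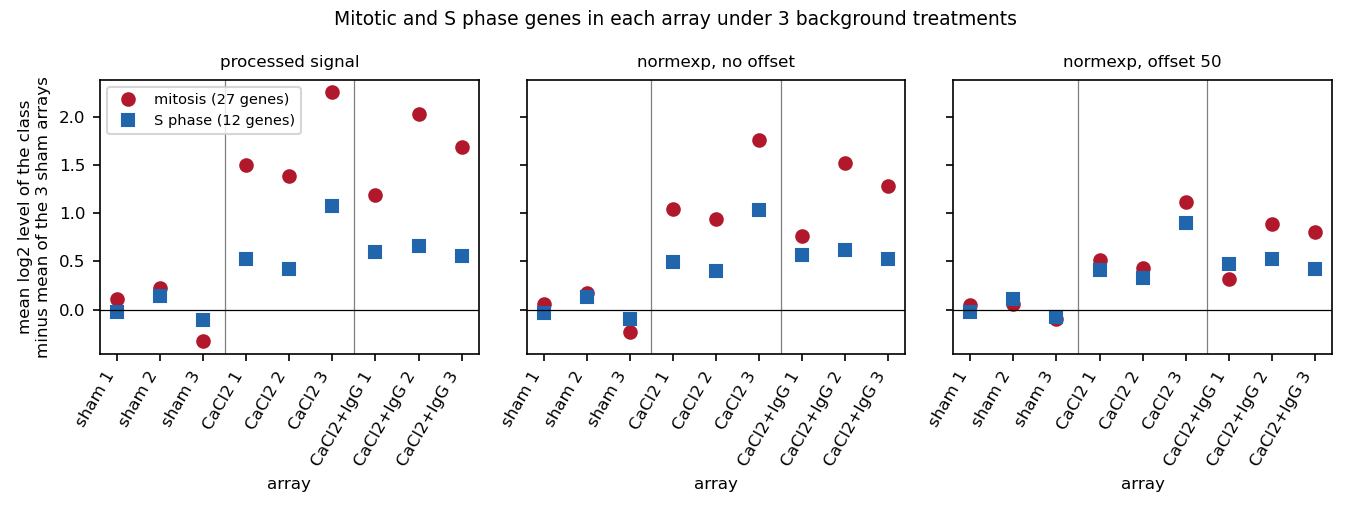
Mean log2 level of 27 mitotic genes (circles) and 12 S phase genes (squares) in each of the 9 arrays, relative to the mean of the 3 sham arrays, for the processed signal and for normexp background correction without and with an offset of 50. The gap between the classes in treated arrays is 0.59 to 1.37 on the processed signal and -0.16 to 0.38 with the offset.

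The CaCl2 arrays differed among themselves in the same direction for nearly all mitotic genes. The third CaCl2 array was the highest of its group for 26 of 27 mitotic and 10 of 12 S phase genes, and for 32.9% of all genes tested. It was also the highest of the 3 for the mean of T and NK cell markers, at 2.92 above sham against 2.01 and 1.83, and of B and plasma cell markers, at 2.72 against 1.81 and 2.02. Neutrophil markers were also highest there, at 1.45, 1.33 and 1.89 in the 3 arrays in order. Macrophage markers stood close together at 2.16, 2.14 and 2.27. Fibroblast markers were lowest there, at 1.35, 1.18 and 0.99, as were endothelial markers (0.27, 0.32 and 0.08) and smooth muscle markers (-2.09, -1.43 and -2.41). Without this array 23 of 40 genes passed. In the CaCl2 plus IgG group, the first array was the lowest for 24 of 27 mitotic genes but for 3 of 12 S phase genes, against 28.5% of all genes, and the second was the highest for 23 of 27 mitotic genes, against 31%. Marker means there followed that order only in part. T and NK cell markers were lowest in the first array, at 2.06 above sham against 2.29 and 2.29. B and plasma cell markers were instead lowest in the second array, at 2.27 against 2.67 in the first, and highest in the third. Macrophage markers stood at 2.17, 2.11 and 2.19 in the arrays in order. Neutrophil markers were highest in the third array, and fibroblast and endothelial markers in the first.

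Several marker lists of cell types also moved between sham and CaCl2, in both directions, and others moved little. Beside their counts, 17.4% of all genes tested rose in CaCl2 and 19% fell. The summed level of 12 macrophage markers, in units of the 75th percentile, was 235.8 to 240.9 in sham, 310.1 to 332 in CaCl2 and 296 to 399 in CaCl2 plus IgG arrays, and 9 of the 12 rose in CaCl2 while 2 fell. That of the 11 measured T and NK cell markers was 7.00 to 9.15, 13.3 to 25.5 and 13.3 to 16.9, with 8 higher and 1 lower in CaCl2, and with Trac not above background. That of 9 B and plasma cell markers was 3.29 to 4.80, 18.8 to 32.6 and 37.3 to 55.1, with 5 higher and 0 lower, in mice labelled as lacking B cells. The summed level of 9 neutrophil markers was lower in CaCl2, at 216 to 279.8 in sham, 138 to 162 in CaCl2 and 139.7 to 347 in CaCl2 plus IgG arrays, although 4 of its 9 markers rose in CaCl2 and 0 fell. Its sum is mostly Csf3r, a cytokine receptor gene, whose change was -0.77 (adjusted p = 0.105), whereas S100a8 rose by 4.54 and S100a9 by 5.43. All 10 smooth muscle markers fell. Of 9 fibroblast markers 5 rose and 0 fell, and of 9 endothelial markers 2 rose and 2 fell. Among markers that could be tested, 1 of 3 for skeletal muscle and 1 of 4 for adipocytes fell, and 0 of 3 erythroid markers passed. The part of these cell types in the change of the cell cycle genes was not tested.

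No difference with added IgG was detectable in these genes at this number of arrays. Between CaCl2 plus IgG and CaCl2, 0 of 40 passed the test by limma, and 0% of all genes tested passed; at an unadjusted p under 0.05, 1 of the 40 and 242 of 16496 genes were counted. The median change was -0.13, with 32 of 40 changes below 0, and the medians of the mitotic and S phase genes were -0.15 and -0.08. The 95% interval of the change lay within 2-fold in either direction for 28 of the 40, made up of all 12 S phase genes, 15 of 27 mitotic genes and Ccnd1, so a change of more than 2-fold is within the interval for the other 12. The mitotic median was below the S phase median by 0.06, a difference that ran from -0.26 to 0.21 when single arrays were left out, with the highest value without the first CaCl2 plus IgG array.

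The gene behind the unadjusted count was Cdc25c, named after its values were seen. It read -6.16, -5.12 and -5.42 in CaCl2, none of them well above background, and -4.93, -4.39 and -3.53 in CaCl2 plus IgG, all of them well above it. It was the 1 gene of the 40 whose groups did not overlap, against 5.02% of all genes tested (2.62% higher with IgG, 2.4% lower). Cdc25c passed the filter on dim probes only through the CaCl2 plus IgG group, so a difference between groups was built into its selection. Its CaCl2 plus IgG mean stood 1.73-fold above the lowest signal that counted as above background in CaCl2. That bound takes no account of the spread between arrays. The interval of the Cdc25c change, taken as above, ran from 0.19 to 2.38 on the log2 scale, and its lower end lies below the bound. The measured change was 1.29 ± 0.48 (unadjusted p = 0.027, limma adjusted p = 1.00).

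CaCl2 plus IgG was also set against sham, with the sham arrays that the CaCl2 comparison used. Of the 40 genes, 26 rose and 0 fell (limma, adjusted p under 0.05), where 28.9% of all genes tested passed and 14.7% rose. For 29 of the 40 all 3 CaCl2 plus IgG arrays lay above all sham arrays, against 20.3% of all genes. The 26 that rose were 20 of 27 mitotic genes, 5 of 12 S phase genes and Ccnd1, with median changes of 1.76 for the mitotic and 0.64 for the S phase genes. Cdca3 rose by 3.47, Cdk1 by 2.76 (at least 3.38-fold), Mki67 by 2.04, Tk1 by 1.88 and Ccnd1 by 1.11. Kif11 and Mcm4, which passed in CaCl2, had adjusted p of 0.0642 and 0.11 here, and Cenpe, which did not, had 0.049. That call of Cenpe was lost with the replicate number as a block (adjusted p = 0.0669), with the slide as a block (0.146), with no filter on dim probes (0.0778), with normexp (0.0641) and when any 1 of 7 of the 9 arrays was left out (up to 0.146). The slide as a block also removed the S phase calls of Mcm5 (adjusted p = 0.124), Mcm3 (0.118), E2f1 (0.0931) and Rrm2 (0.0523). It removed the mitotic calls of Tpx2 (0.125), Plk1 (0.0722) and Aurka (0.0614) too. Without the third CaCl2 plus IgG array 24 of 40 rose, and without the second, 18.

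Beyond the 44, other genes of the cycle were counted in 9 lists chosen by role, and 142 of their 154 genes could be tested. In CaCl2 against sham, 48 rose (33.8%) and 12 fell (8.45%), where 17.4% of all genes tested rose and 19% fell. The counts of each list below stand beside those same shares. With arrays scaled to the median, 57 rose and 1 fell, and with quantile normalization 56 rose and 8 fell. The counts include genes above background on no sham array, such as Cdkn2a, E2f8, Cenpn and Kifc1. These passed the filter on dim probes only through treated arrays, so a difference between groups was built into their selection. On probes above background on all 9 arrays, 38 rose and 13 fell.

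By count, genes that work at kinetochores (52.6%) and on condensed chromosomes and the spindle (55%) rose most. By share, the smaller list of cyclin-dependent kinase inhibitors stood higher, at 62.5% of 8 genes, and origin licensing and firing stood at 47.1%. In the list of kinetochore and spindle checkpoint genes 10 of 19 rose and 0 fell, with Cdca5, the cohesin protector sororin, at 2.53 ± 0.34 and Cenpn, a reader of the centromeric histone, at 1.5 ± 0.20. Cenpn was not above background in sham, was at least 1.22-fold higher in CaCl2, and read -0.24 (adjusted p = 0.242) with normexp and its offset. In the list of condensin, cohesin and spindle motor genes 11 of 20 rose, among them Kif22, a chromosome-arm motor (2.47 ± 0.29), and Kifc1, a minus-end motor (at least 2.49-fold, not above background in sham). Anln, an actin-binding protein of the cleavage furrow, fell by 1.00 in that list (adjusted p = 0.0304, and 0.235 with median scaling). None of the 15 subunits of the anaphase-promoting complex rose, against 17.4% of all genes, and 3 fell (20%), a share near the 19% of all genes. Among them were Cdc23 at -0.80 ± 0.14 and Anapc7 at -1.14 ± 0.23 (adjusted p = 0.317 and 0.144 with median scaling).

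Replication genes outside the 44 rose in part. For origin licensing and firing it was 8 of 17, with 0 lower. Cdt1, which loads the MCM ring, read -1.35, -1.08 and -1.66 in sham and 0.65, 0.61 and 1.13 in CaCl2, a rise of 2.16 ± 0.20 (adjusted p = 0.000451), and Gins1, a subunit of the active helicase, rose by 1.44 ± 0.18. For replicative polymerases and fork proteins it was 8 of 26, with 0 lower, among them the flap nuclease Fen1 (1.31 ± 0.23) and the polymerase Pole (1.22 ± 0.22).

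The cyclin-dependent kinase inhibitors, which restrain the cycle, were not lower alongside: 5 of 8 rose and 0 fell. Cdkn2a, the locus of p16 and ARF, read -6.17, -5.23 and -4.62 in sham, none well above background, -1.12, -1.91 and -0.62 in CaCl2, and -0.93, -1.26 and -1.75 in CaCl2 plus IgG arrays. On the processed signal it was at least 8.44-fold higher in CaCl2 (measured change 4.13 ± 0.45, adjusted p = 0.000742) and at least 7.88-fold higher in CaCl2 plus IgG. With normexp and its offset the change in CaCl2 was smaller, at 1.29 on the log2 scale (limma adjusted p = 0.00258). There was a gap between the highest sham and the lowest treated array. Cdkn2a passed the filter on dim probes only through treated arrays, however, so a difference between groups was built into its selection.

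Cdkn2b (p15) rose by 1.36 ± 0.26 and Cdkn3, a phosphatase that acts on CDKs, by 1.28 ± 0.24. Cdkn1a (p21), the p53 target, read 1.06, 1.05 and 1.00 in sham and 2.48, 1.42 and 2.23 in CaCl2 (1.01 ± 0.27, adjusted p = 0.02), and Cdkn2c (p18) rose by 0.46 ± 0.16 (adjusted p = 0.0477). With the slide as a block these last 2 missed the threshold (adjusted p = 0.059 and 0.107). Cdkn2d (p19, 0.30), Cdkn1b (p27, 0.24) and Cdkn1c (p57, 0.22) did not pass, with adjusted p of 0.09, 0.37 and 0.517.

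Among E2F, pocket protein and MuvB genes, the regulators upstream of both classes, 4 of 18 rose (22.2%) and 5 fell (27.8%), shares not far from the 17.4% and 19% of all genes. The 4 that rose were E2f2 (2.84 ± 0.37), an activator, E2f8 (at least 3.08-fold, not above background in sham), a repressor of the late cycle, E2f3 (0.88 ± 0.17), an activator, and the pocket protein gene Rbl1 (1.30 ± 0.27). E2f2 read -3.32, -2.55 and -2.41 in sham and -0.50, -0.17 and 0.90 in CaCl2, with no overlap. Lin52, a subunit of MuvB, fell by 1.07 ± 0.13 (adjusted p = 0.00102, and 0.085 with median scaling).

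Among the checkpoint kinases and CDC25 phosphatases 2 of 11 rose, the stress gene Gadd45a (1.75 ± 0.39) and the kinase gene Chek2 (1.47 ± 0.36), and 1 fell, Wee1, which holds CDK1 inactive (-0.57 ± 0.18, adjusted p = 0.0394, and -0.10 with median scaling). The share that rose, 18.2%, is near the 17.4% of all genes. The D-type cyclins and interphase kinases other than Ccnd1 had 0 of 8 higher and 2 lower (25%, against 19% of all genes), Ccnd3 at -0.44 ± 0.14 and Mnat1 at -0.48 ± 0.14. With median scaling these 2 changes were 0.04 and -0.01. With normexp and its offset, 4 further genes named among these lists lost their calls: Kifc1 (change 0.43, adjusted p = 0.065), E2f8 (0.26, 0.333), Chek2 (0.21, 0.224) and Cdkn3 (0.13, 0.56). For Kifc1 and E2f8 these changes were less than the bounds given above.

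**Figure D5:**
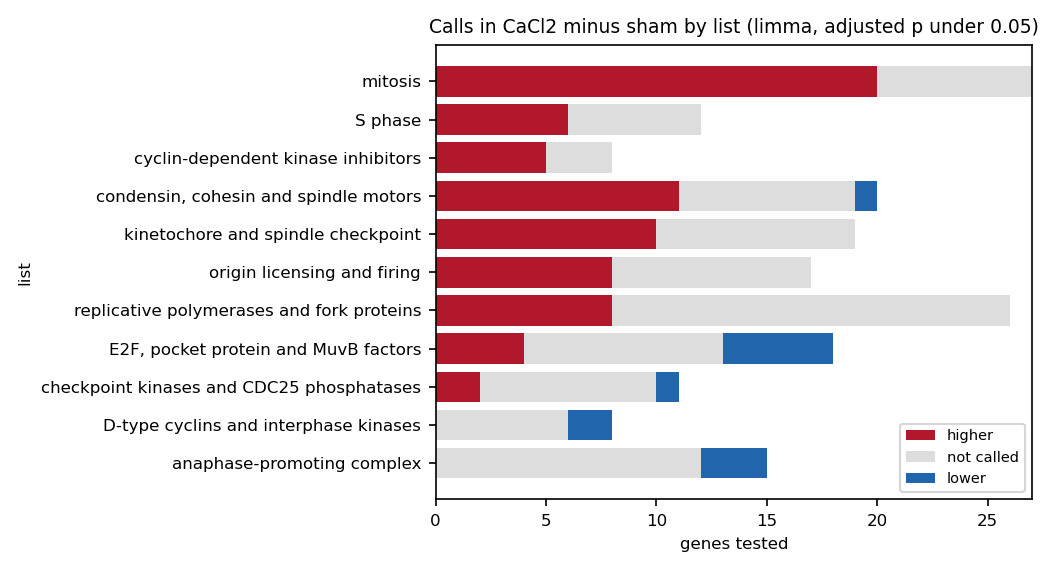
Number of genes tested (horizontal axis) in the mitotic and S phase classes and in 9 further lists of cell cycle genes (vertical axis), divided into those called higher, not called and called lower in CaCl2 against sham (limma, adjusted p under 0.05). Higher calls make up 20 of 27 mitotic and 10 of 19 kinetochore genes, and 0 of 15 genes of the anaphase-promoting complex.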

How the data were processed

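Total RNA was labelled with Cy3 and hybridised to SurePrint G3 Mouse arrays, 1 array per sample, per the labels' protocols; the labels name both the SV Total RNA and the RNeasy kit. The deposited scanner files give each spot's intensity on a linear scale, made with Feature Extraction 10.7.1.1 per the file headers, and 9.5.1.1 per the submitters' processing notes. The authors' deposited value table, in log2, served as an alternative. The scale was log2 of the processed signal minus each array's 75th percentile, averaged over spots of a probe. Probes had to be well above background on all 3 arrays of a group, and the brightest kept probe named each gene. limma 3.58.1 in R 4.3.3 (lmFit, eBayes) fitted all 9 arrays in 3 groups, with 6 residual degrees of freedom and Benjamini-Hochberg adjustment over 16496 genes at a threshold of 0.05. The array number limits the precision. The fit was tested on simulated data. Members and lists were chosen with earlier results of these data known. Named in full were the 3 largest and 3 smallest changes of each class, Ccnd1, all CDK inhibitors, and from each further list the 2 called genes with the smallest p and those moving against the rest; other members are named by role. Alternatives were scaling, background correction, filter, probe choice, blocks, the deposited table and leaving out each array.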

Additional observations from a re-analysis of the deposited data

How the results depend on the processing

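The count of cell cycle genes called in CaCl2 against sham was 27 and ran, over 22 alternatives, from 19 (normexp on probes above background on all 9 arrays, with 31 genes tested) to 33 (median scaling), with 20 under normexp alone, all upward except 3 of 29 without the filter on dim probes and 1 of 29 without the third CaCl2 plus IgG array; leaving out single arrays gave 23 to 29. For CaCl2 plus IgG against sham the count of 26 fell to 17 with normexp on probes above background on all 9 arrays, a setting added after seeing the data with fewer genes tested (31), and to 18 to 28 when single arrays were left out. No setting called any of these genes between CaCl2 plus IgG and CaCl2. The mitotic minus S phase median difference of 1.00 was 1.28 in the deposited table, 1.26 with quantile normalization, 1.34 with slide row as a block and 0.067 with normexp; the added settings gave 0.60 (normexp without offset), 0.65 (the same on probes above background on all 9 arrays) and 0.22 (normexp with offset on those probes). Leaving out single arrays gave 0.94 to 1.17. For CaCl2 plus IgG against CaCl2 it was -0.06, -0.32 with the row block, and -0.26 to 0.21 leaving out single arrays. Kif11 reversed to -0.11 with normexp. Within the shared slide, 23 of 40 genes passed in CaCl2 against sham; no row of that slide holds both sham and CaCl2 arrays. Other cell cycle genes gave 42 to 64 calls, and 45 to 64 leaving out single arrays. Replicate numbers are shared between groups, but same-numbered arrays correlated from -0.20 to 0.22 and 3 of 9 correlated best with their own number; with a replicate block the count was 26 in CaCl2 and 21 in CaCl2 plus IgG against sham. Below background throughout at least 1 group were 9 members, of which Aurkb, Cenpf, Ttk and Ccne2 were not tested. Low signals limit the size of the changes in the rest of these. They do so too in Cdca3, Kif23, Bub1b and Kif11, each with 1 sham array well above background.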
